A study of Mus musculus with 8 samples.

Results

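The PRDM genes described here are the 9 paralogues of Prdm12 named Prdm1, Prdm2, Mecom, Prdm4, Prdm6, Prdm8, Prdm13, Prdm15 and Prdm16, out of 38355 genes in the count tables. They were taken by symbol, each symbol matched to 1 Ensembl mouse gene identifier, and Prdm12 itself was left out. RNA was sequenced from dorsal root ganglia, which hold the cell bodies of sensory neurons, dissected with the adjoining spinal cord at thoracic level. The embryos were of the C57Bl6 strain at stage E11.5, given in embryonic days. The first group held 4 libraries from Prdm12-/- embryos (KO) and the second 4 libraries from wild-type embryos (WT), and the comparison addresses what depends on Prdm12 in somatosensory neurons. Triplicates are mentioned in the design, but each group has 4 listed libraries and every one was used. The labels give neither the part of Prdm12 that was deleted nor whether a library came from 1 embryo or a pool, so p-values measure the spread between these libraries, which may be partly technical. Ganglia and cord were read together, so fewer cells of a type and less RNA per cell cannot be told apart.

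PRDM proteins carry an N-terminal PR domain, a relative of the SET domain of histone methyltransferases, followed in most members by C2H2 zinc fingers that bind DNA. Some members methylate histone H3 at lysine 9 themselves, and others act by recruiting such enzymes, deacetylases or corepressors to their target genes. Prdm12 is required for the nociceptor lineage of sensory neurons and, in the ventral spinal cord, for the p1 progenitors that make V1 interneurons. Prdm8, Prdm13 and Prdm16 are also known from neural tissue, while Prdm1, Prdm6 and Mecom are best known from germ, smooth muscle and blood stem cells.

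The reading frames of Prdm12 and of each paralogue held zinc fingers, and the coding bases of 1 finger per gene are set side by side. The stretch of 63 coding bases below spans 1 zinc finger from the first cysteine codon to the second histidine codon. Capitals mark the 2 cysteine and 2 histidine codons that hold the zinc ion. For Prdm12 it is the first finger found, and for each paralogue the finger with the most bases equal to it, read from GENCODE M21 transcripts. The stretch of Prdm6 is not printed.
Prdm12: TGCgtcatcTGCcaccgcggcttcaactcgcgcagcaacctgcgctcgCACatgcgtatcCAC
Prdm16: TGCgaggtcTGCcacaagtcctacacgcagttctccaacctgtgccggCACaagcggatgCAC
Prdm15: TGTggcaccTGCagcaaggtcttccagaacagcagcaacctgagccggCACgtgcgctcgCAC
Prdm13: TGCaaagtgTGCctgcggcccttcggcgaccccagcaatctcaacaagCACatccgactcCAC
Prdm8: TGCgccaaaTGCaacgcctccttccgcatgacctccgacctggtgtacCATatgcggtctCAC
Prdm4: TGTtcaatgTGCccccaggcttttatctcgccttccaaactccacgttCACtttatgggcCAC
Prdm1: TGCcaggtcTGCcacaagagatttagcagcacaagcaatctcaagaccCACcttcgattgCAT
Mecom: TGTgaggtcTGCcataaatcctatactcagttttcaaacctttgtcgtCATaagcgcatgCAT
Prdm2: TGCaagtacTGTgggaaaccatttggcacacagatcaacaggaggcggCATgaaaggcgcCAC
Of the 63 bases, Prdm16 and Prdm15 shared 40 with Prdm12, Prdm13 38, Prdm8 36, Prdm6 35, Prdm4 34, Prdm1 33, Mecom 30 and Prdm2 26. The printed stretches of Mecom and Prdm16 encode the same amino acids, so these base counts do not rank the proteins. The finger pattern with this exact spacing occurred 12 times in Prdm15, 6 times each in Mecom and Prdm16, 5 times in Prdm4, 4 in Prdm1, 3 each in Prdm2 and Prdm13, and 2 each in Prdm6, Prdm8 and Prdm12. Fingers with other spacing are not in these counts. A paralogue with more copies offered more fingers from which its closest was chosen. The pattern itself fixes most bases of the marked codons, so part of each base count was set by the search. How many bases the fingers of unrelated genes share with Prdm12 was not tested. The counts thus do not show that these stretches are the same finger in each gene. Among 21764 genes with a complete reading frame, 2.98% held the pattern at least once, with a median of 8 copies.

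Base differences bear on how far reads can be assigned to a single paralogue. Over the 45 pairs among the 9 genes and Prdm12, the longest run of identical transcript bases had a median of 15 bases, and the longest was 49 bases, between Prdm2 and Mecom. No 50-base stretch was thus common to any pair. Other genes shared more. Of the 50-base stretches of Prdm8 transcripts, 26.7% also lay in transcripts of other genes, chiefly A730035I17Rik, which is annotated antisense to Prdm8 and overlaps its exons (chr5:98183121-98185984). A730035I17Rik had 0 counts in all 8 libraries. Of Prdm4 stretches 3.22% matched 3 processed pseudogenes, Gm17740, Gm14783 and Gm14784. For the other 7 genes the share was below 1%. Whether counting used strand is not given in the sources used here, so reads of Prdm8 in the overlap may have been dropped and its level is uncertain.

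The genes lie on 6 chromosomes of mm10. Prdm1 (ENSMUSG00000038151, chr10:44437177-44528501, minus strand) and Prdm4 (ENSMUSG00000035529, chr10:85891966-85917142, minus strand) share chromosome 10. Prdm2 (ENSMUSG00000057637, chr4:143107391-143212995), Prdm13 (ENSMUSG00000040478, chr4:21677480-21685963) and Prdm16 (ENSMUSG00000039410, chr4:154316125-154636873), all on the minus strand, share chromosome 4. Mecom (ENSMUSG00000027684, chr3:29951296-30548008, minus strand), Prdm8 (ENSMUSG00000035456, chr5:98167198-98188991, plus strand), Prdm15 (ENSMUSG00000014039, chr16:97791467-97851850, minus strand) and Prdm6 (ENSMUSG00000069378, chromosome 18, plus strand) stand alone. None shares chromosome 2 with Prdm12.

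Library totals ran from 23088908 to 27567399 counts in KO and from 25490087 to 67782435 in WT, WT replicate 1 being 2.55 times as deep as the median of the other libraries. Prdm12 stood at 1.55, 1.52, 0.975 and 0.962 CPM (counts normalised for depth by TMM) in KO replicates 1 to 4, against 22.2, 37.9, 39.6 and 31.9 CPM in WT replicates 1 to 4. All 4 KO libraries lay below every WT library, as their labels state. Of 16068 genes tested with edgeR's quasi-likelihood test, 48 changed at a Benjamini-Hochberg adjusted p under 0.05, which is 0.299% of them. Sensory neuron markers, neural crest and ganglion glia markers, spinal cord progenitor markers and spinal neuron markers were all present, with no marker at 0 in every library. So were markers of muscle, mesenchyme, smooth muscle, endothelium, blood, macrophages and surface epithelium, so the libraries hold more than neural tissue. Summed over 8 skeletal muscle markers the level was 860 to 1258 CPM in KO and 775 to 923 CPM in WT.

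Per length, Prdm2 and Prdm4 were the highest of the 9 paralogues in both groups and Prdm1 the lowest. Levels are given as RPKM, that is CPM divided by the union exon length in kilobases. Prdm2, which encodes a protein that binds the retinoblastoma protein, averaged 23.2 ± 1.09 RPKM in KO and 23.7 ± 0.995 RPKM in WT (SD, n = 4 each). Prdm4, whose protein binds the neurotrophin receptor p75, averaged 21.9 ± 0.484 RPKM in KO and 22.5 ± 0.602 RPKM in WT. Their WT ranges overlapped, but Prdm2 was higher than Prdm4 in 8 of 8 libraries, by a factor of 1.05 (two-sided exact sign-flip permutation test of the within-library difference, p = 0.00781, adjusted p = 0.0156 over 8 neighbouring pairs). That p is the smallest 8 libraries allow. The order came from the WT means, and the test used those WT libraries together with the KO libraries. These p-values thus describe only how steady a step was across libraries, at the length chosen. By longest transcript or by coding length Prdm4 stood above Prdm2.

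A wide step of 2.74 times separated Prdm4 from the next gene, Prdm13, without overlap in either group (exact permutation adjusted p = 0.0156). Prdm13, a repressor of the dorsal spinal cord acting downstream of Ptf1a, averaged 7.72 ± 0.678 RPKM in KO and 8.55 ± 0.976 RPKM in WT. Mecom, also called Evi1 or Prdm3, averaged 7.44 ± 0.376 RPKM in KO and 6.67 ± 0.740 RPKM in WT. Prdm8, the corepressor partner of the bHLH factor Bhlhe22, averaged 5.67 ± 0.471 RPKM in KO and 6.19 ± 0.737 RPKM in WT. Prdm13 exceeded Mecom in 7 of 8 libraries with overlapping ranges in both groups (exact permutation adjusted p = 0.0625). Mecom exceeded Prdm8 in 7 of 8 libraries (exact permutation p = 0.0391, adjusted p = 0.0521), and their ranges overlapped in WT but not in KO.

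Below it came Prdm15, a regulator of pluripotent cells, at 3.47 ± 0.118 RPKM in KO and 3.48 ± 0.0482 RPKM in WT. Prdm8 exceeded it 1.70 times in 8 of 8 libraries (exact permutation adjusted p = 0.0156), and it exceeded Prdm6 1.32 times in 7 of 8 (adjusted p = 0.025 by the same exact test). Prdm6, a repressor known from vascular smooth muscle, stood at 2.70 ± 0.426 RPKM in KO and 2.63 ± 0.498 RPKM in WT. Prdm16, which maintains neural and blood stem cells, stood at 2.58 ± 0.273 RPKM in KO and 2.62 ± 0.154 RPKM in WT. Prdm6 and Prdm16 could not be ordered (5 of 8 libraries, exact permutation adjusted p = 0.789). Prdm1, which encodes Blimp-1 of plasma cells and primordial germ cells, was lowest at 0.780 ± 0.140 RPKM in KO and 0.854 ± 0.164 RPKM in WT, and Prdm16 exceeded it 3.22 times in 8 of 8 libraries (exact permutation adjusted p = 0.0156).

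**Figure D1:**
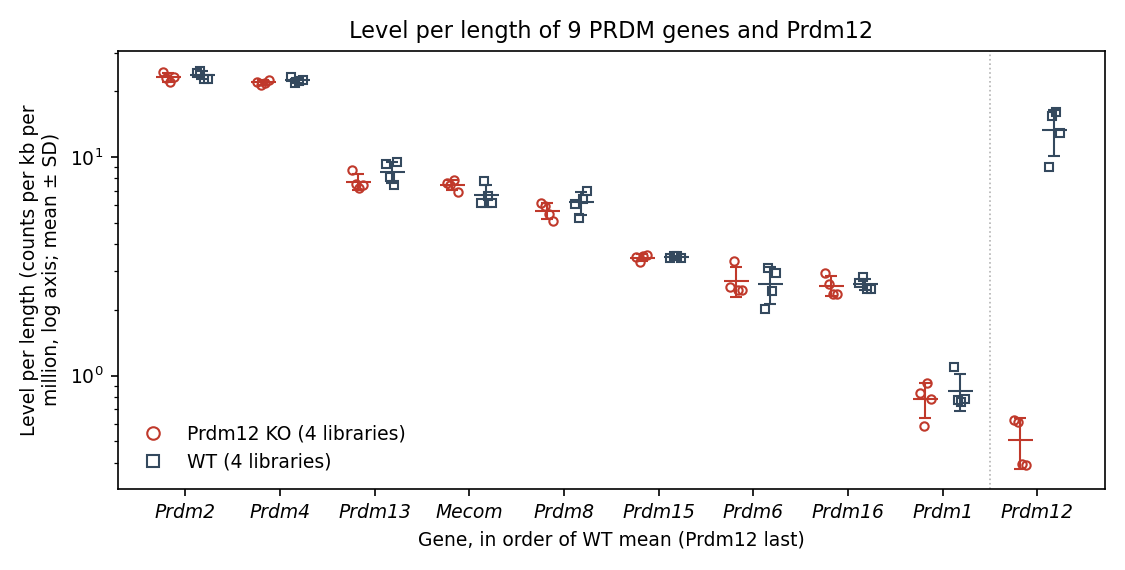
Level per length (RPKM, on a log axis) for the 9 PRDM genes in order of their WT mean and for Prdm12. Circles are the 4 KO and squares the 4 WT libraries, with mean and SD as bars; KO and WT overlap for each of the 9 genes, while Prdm12 averaged 0.507 in KO and 13.3 in WT.

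The order of group means was the same in KO as in WT, with 8 of 8 neighbouring pairs kept. It rests in part on the annotated length. With the longest transcript in place of union exons, Prdm4 stood above Prdm2 and Mecom above Prdm13, and with coding length Prdm16 also stood above Prdm6. Mecom moved most, at 14.6 RPKM in WT by longest transcript against 6.67 by union exons, because its 17 annotated transcripts have a union of 12427 bases and a longest transcript of 5692. The step below Prdm2 and Prdm4 also narrowed by longest transcript, where Prdm2 averaged 24.1 RPKM in WT and Mecom came next. On the union exon scale Prdm12 averaged 0.507 ± 0.133 RPKM in KO and 13.3 ± 3.18 RPKM in WT (SD, n = 4 each). By these group means it ranked between Prdm4 and Prdm13 in WT and below Prdm1 in KO. By longest transcript, however, Mecom stood above Prdm12 in WT. Single libraries also differed. In WT replicate 1 Prdm12 (8.97 RPKM) lay below Prdm13 (9.29 RPKM), and in KO replicate 2 Prdm12 (0.616 RPKM) lay above Prdm1 (0.589 RPKM).

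None of the 9 paralogues passed the test between KO and WT. All 9 passed the filter on low counts, 0 were called (of all tested genes 0.299% were called, 0.243% as lower and 0.056% as higher in KO), and 2 had positive and 7 negative log2 fold changes of KO over WT. The estimates lay between −0.15 and 0.16, with a median of −0.031 beside −0.003 over all genes tested. The median size of the change was 0.050 on the log2 scale, against 0.061 over all genes. KO and WT values overlapped for 9 of the 9 genes, so none was among the 4.14% of tested genes whose groups did not overlap. At an unadjusted p under 0.05 there was 1 of 9, Mecom, where 6.35% of all genes passed. Without KO replicate 1, or without WT replicate 3, there was also 1, but it was not Mecom. Without WT replicate 2 there were 2. DESeq2 and limma-voom also called 0 of the 9 and each had 1 with an unadjusted p under 0.05. No value below is a call, and a p that misses the threshold does not show that the groups were equal, so the 95% interval of each fold is given.

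**Figure D2:**
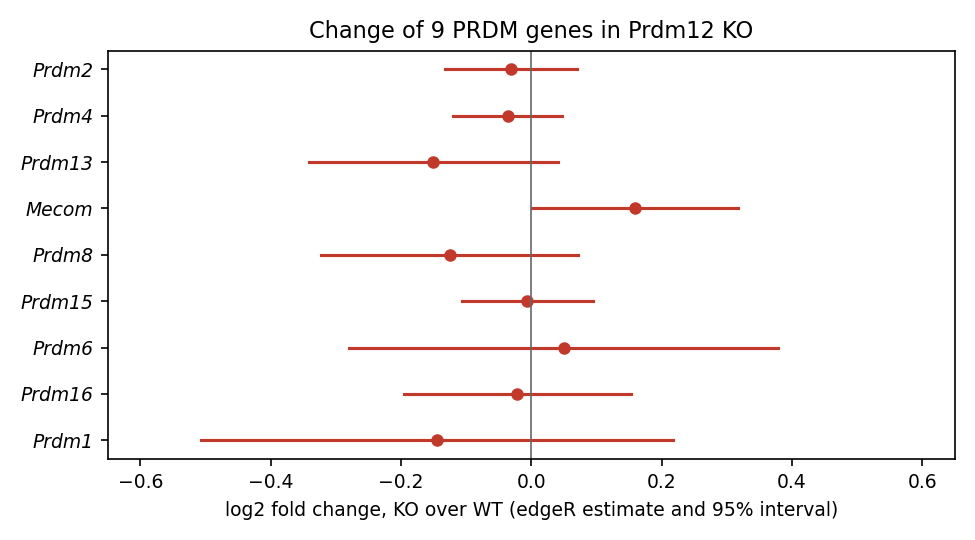
Log2 fold change of KO over WT for each PRDM gene, as the edgeR estimate (point) with its 95% interval (line), in order of WT level from top to bottom. Intervals are narrow for Prdm2, Prdm4 and Prdm15 and wide for Prdm1 and Prdm6; Prdm12, at −4.70, is off the axis.

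The broadly expressed members Prdm2, Prdm4 and Prdm15 had the smallest standard errors of the 9. Prdm2 had 182, 171, 163 and 172 CPM in KO replicates 1 to 4, against 179, 184, 170 and 169 CPM in WT replicates 1 to 4. The highest and lowest of these came from different groups but the rest were interleaved, and the log2 fold change was −0.03 (SE 0.05, edgeR adjusted p = 0.959), with a 95% interval of 0.912 to 1.05-fold. Prdm4 had 109, 105, 107 and 111 CPM in KO, against 114, 107, 109 and 111 CPM in WT. WT replicates 1 and 4 were the highest of all 8, and the interval of the fold was 0.920 to 1.03 (log2 fold change −0.04, SE 0.04, edgeR adjusted p = 0.942). Prdm15 had 39.5, 37.4, 39.9 and 40.5 CPM in KO, against 39.0, 39.9, 40.1 and 39.1 CPM in WT. KO held both the highest and the lowest Prdm15 library, and the interval was 0.929 to 1.07-fold around a log2 fold change of −0.01 (SE 0.05, edgeR adjusted p = 0.997).

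The members best known from the neural tube were Prdm13, Prdm8 and Prdm16. Prdm13 had 37.3, 32.1, 30.7 and 32.0 CPM in KO replicates 1 to 4, against 39.8, 34.5, 31.8 and 40.4 CPM in WT. The 2 highest libraries were WT replicates 4 and 1, while KO replicate 1 exceeded WT replicates 2 and 3. Its log2 fold change was −0.15 (SE 0.09, edgeR adjusted p = 0.863), with an interval of 0.789 to 1.03-fold. Prdm8 had 29.8, 29.0, 26.5 and 24.8 CPM in KO, against 29.6, 25.4, 31.3 and 34.0 CPM in WT. WT replicates 4 and 3 were highest and KO replicate 4 lowest, yet WT replicate 2 lay below 3 KO libraries, and the log2 fold change was −0.12 (SE 0.09, edgeR adjusted p = 0.91, interval 0.800 to 1.05-fold). Prdm16 had 27.5, 24.6, 22.1 and 22.1 CPM in KO, against 24.7, 26.3, 23.3 and 23.3 CPM in WT. KO held the highest and the 2 lowest libraries of Prdm16, around a log2 fold change of −0.02 (SE 0.08, edgeR adjusted p = 0.987, interval 0.873 to 1.11-fold).

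Beside these negative estimates, the summed level of 8 spinal cord progenitor markers was 2486 to 2631 CPM in KO and 2625 to 2906 CPM in WT. Most of that sum came from Vim, at means of 1482 CPM in KO and 1586 CPM in WT, and Nes, at 822 and 886 CPM. Of the 8 markers 7 had negative log2 fold changes and 1, Nkx6-1, a positive one (0.11), with a median of −0.12 and 0 called. With the mean log2 CPM of muscle and mesenchyme markers as a covariate, Prdm13, Prdm8 and Prdm16 had the opposite sign. Their log2 fold changes were 0.08 (SE 0.10), 0.06 (SE 0.12) and 0.08 (SE 0.11), without a call. That fit called 1 gene in all. Without the covariate, 8 of 8 muscle and 10 of 10 mesenchyme markers had positive log2 fold changes, so it cannot be separated from genotype. The part of the tissue mix in the small negative values was not tested further.

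Mecom, a zinc-finger gene needed by blood-forming stem cells, had the smallest p of the family. It stood at 94.1, 92.7, 97.1 and 86.0 CPM in KO replicates 1 to 4, against 76.7, 96.1, 82.4 and 76.5 CPM in WT replicates 1 to 4. Each KO library exceeded WT replicates 1, 3 and 4, while WT replicate 2 exceeded all KO libraries but replicate 3. The log2 fold change was 0.16 (SE 0.07, interval 1.00 to 1.25-fold) with an unadjusted p of 0.048 and an edgeR adjusted p of 0.775. The result depended on single libraries. Without WT replicate 2 the log2 fold change was 0.24 and the adjusted p 0.240. The unadjusted edgeR p was 0.0012 without WT replicate 2 and 0.0314 without KO replicate 4. It was 0.0805 to 0.134 when any other library was left out. Over all alternatives the adjusted p of Mecom ran from 0.240 to 1.00. Mecom had a log2 fold change of 0.10 (SE 0.11) with the muscle and mesenchyme covariate. Summed over 6 endothelium markers the level was 375 to 443 CPM in KO and 372 to 428 CPM in WT, and over 10 mesenchyme and cartilage markers 4698 to 5451 CPM in KO and 3890 to 5000 CPM in WT. Their part in the Mecom values was not tested.

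In CPM, without regard to length, Prdm6 and Prdm1 were the scarcest, and their fold changes were the least certain. Prdm6 had 8.89, 11.6, 8.59 and 8.53 CPM in KO, against 7.01, 10.8, 8.51 and 10.2 CPM in WT. KO replicate 2 stood well above the other KO libraries and WT replicate 1 was lowest of all, so the log2 fold change of 0.05 (SE 0.15, edgeR adjusted p = 0.982, interval 0.824 to 1.30-fold) was −0.07 without KO replicate 2 and −0.06 without WT replicate 1. Smooth muscle markers summed to 279 to 415 CPM in KO and 255 to 323 CPM in WT. Of these 6 markers 3 had positive and 3 negative log2 fold changes, with a median of 0.03. Their part in Prdm6 was not tested. Prdm1 had 4.62, 3.28, 5.14 and 4.37 CPM in KO, against 6.13, 4.32, 4.23 and 4.37 CPM in WT, from 82 to 137 reads in all libraries but WT replicate 1, which had 413. WT replicate 1 was the highest and KO replicate 2 the lowest, and the log2 fold change of −0.14 (SE 0.17, edgeR adjusted p = 0.951, interval 0.704 to 1.16-fold) was 0.02 without WT replicate 1.

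The spread within groups differed between the paralogues. The biological coefficient of variation fitted by edgeR was 4.57% for Prdm4, 5.47% for Prdm2 and 5.58% for Prdm15, each below the value fitted for genes of like abundance (6.41%, 6.67% and 8.46%). It was 7.45% for Mecom, 8.89% for Prdm16, 9.41% for Prdm13 and 9.75% for Prdm8. Prdm6 and Prdm1 reached 15.2% and 16.4%, against 13.1% and 15.8% for genes of like abundance.

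Added together, the 9 paralogues made up 75.5 ± 2.41 RPKM in KO and 77.2 ± 1.59 RPKM in WT (SD, n = 4 each). The sums were 78.9, 75.2, 73.5 and 74.3 RPKM in KO replicates 1 to 4, and 78.2, 78.0, 74.8 and 77.6 RPKM in WT replicates 1 to 4. The groups overlapped, and the difference of −1.69 RPKM stands beside −12.8 RPKM for Prdm12 itself.

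**Figure D3:**
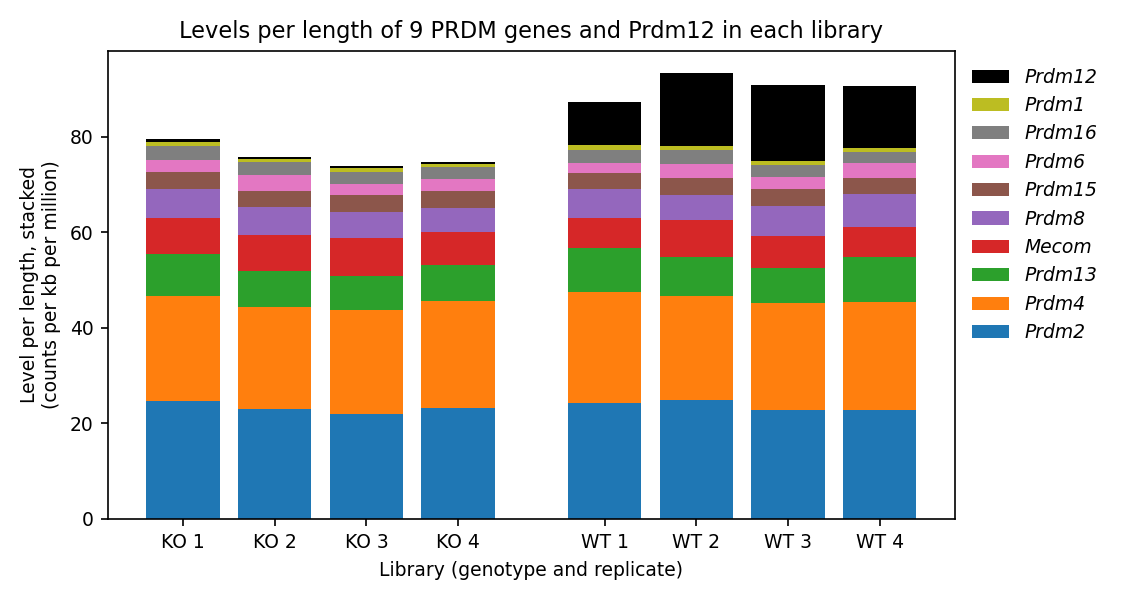
Level per length of the 9 PRDM genes and Prdm12, stacked for each library in RPKM, KO libraries left and WT libraries right. The coloured part reached 73.5 to 78.9 in KO and 74.8 to 78.2 in WT, and the black Prdm12 part, 8.97 to 16.0 in WT, is 0.389 to 0.629 in KO.

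Genes that work with PRDM proteins were read from the same fit. Of 8 other PRDM and PRDM-like genes 7 were tested, 0 were called and the median log2 fold change was 0.06, with 6 positive and 1 negative. Among those with the smallest p were Zfpm2 (0.16), which encodes a GATA cofactor, Prdm11 (0.10) and Zfp408 (0.05), with edgeR adjusted p-values of 0.869 to 0.935. The eighth, Prdm14, had 2 to 5 counts per KO library and 3 to 9 per WT library and was not tested.

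Of 15 corepressors and chromatin enzymes known as PRDM partners, 0 were called and the median was −0.03, with 4 positive and 11 negative. Ehmt2 and Ehmt1, which encode the H3K9 methyltransferases G9a and GLP that Prdm12 is known to recruit, had log2 fold changes of 0.03 (SE 0.05) and −0.02 (SE 0.05). Bhlhe22, the partner of Prdm8, had 14.3, 17.3, 13.3 and 14.996 CPM in KO, against 16.8, 17.3, 16.8 and 17.7 CPM in WT. Only KO replicate 2 reached the WT range, and the log2 fold change was −0.19 (SE 0.08, edgeR adjusted p = 0.731). Tle3, a Groucho corepressor, Kdm1a, a histone demethylase, and Suv39h1, an H3K9 methyltransferase, followed at −0.07, −0.04 and −0.04. Of 14 H3K9 methyltransferases and demethylases 13 were tested, 0 were called and the median was −0.03. The demethylase gene Kdm7a had the smallest p, with a log2 fold change of −0.17 (SE 0.06, edgeR adjusted p = 0.578). It was followed by Phf8 (−0.05), Kdm4c (−0.06) and Suv39h2 (−0.07). The untested member Kdm4d had 4 to 9 counts in KO and 5 to 11 in WT libraries.

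Ptf1a drives Prdm13 in dorsal progenitors, and Prdm13 in turn represses excitatory genes such as Tlx3. In the list of 19 genes of that programme 0 were called, with 1 positive and 18 negative values and a median of −0.13. Over all tested genes the median was −0.003. The list joins Ptf1a with genes that Prdm13 represses, so its median has no single direction to be read. Prrxl1 and Tlx3 are also among the 10 sensory neuron markers, of which 9 were negative, with a median of −0.28. Prrxl1, a homeobox gene also called Drgx that sensory and dorsal horn neurons both express, had 2.53, 2.52, 2.51 and 2.49 CPM in KO, against 3.10, 4.35, 3.96 and 3.91 CPM in WT. The groups did not overlap, and the log2 fold change was −0.60 (SE 0.13, edgeR adjusted p = 0.156). Tlx3, a selector of excitatory and sensory neurons, was at −0.52 (SE 0.13, edgeR adjusted p = 0.337). Gbx2 was at −0.29 without overlap of the groups (adjusted p = 0.533), and Lhx1 at −0.17. Prrxl1 and Gbx2 were the 2 of 19 genes without overlap, beside 4.14% of all tested genes. Ptf1a itself was at −0.26 (SE 0.17, edgeR adjusted p = 0.901). Without WT replicate 1, 2 of the 19 genes were called, in a fit that called 133 genes in all.

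Of 12 genes of p1 progenitors and V1 interneurons other than Prdm12, 1 fell, 11 did not pass and the median was −0.11, where 0.243% of all tested genes were called as lower in KO. The gene that fell was Foxd3, a forkhead factor of V1 neurons and neural crest, at 17.99, 19.3, 14.7 and 17.9 CPM in KO, against 22.3, 26.8, 27.3 and 27.5 CPM in WT (log2 fold change −0.57, SE 0.09, edgeR adjusted p = 0.0303). In fits without 1 library other than WT replicate 1, and with the muscle and mesenchyme covariate, only 1 gene of the list with Prdm12 included was called. Foxd3 and Prdm12, which both passed in the main fit, were thus not both called in any of those fits. En1, which defines V1 neurons, had 17.5, 18.5, 16.2 and 13.4 CPM in KO, against 17.4, 25.2, 25.0 and 28.6 CPM in WT, overlapping only at WT replicate 1 (log2 fold change −0.54, SE 0.15, edgeR adjusted p = 0.393).

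**Figure D4:**
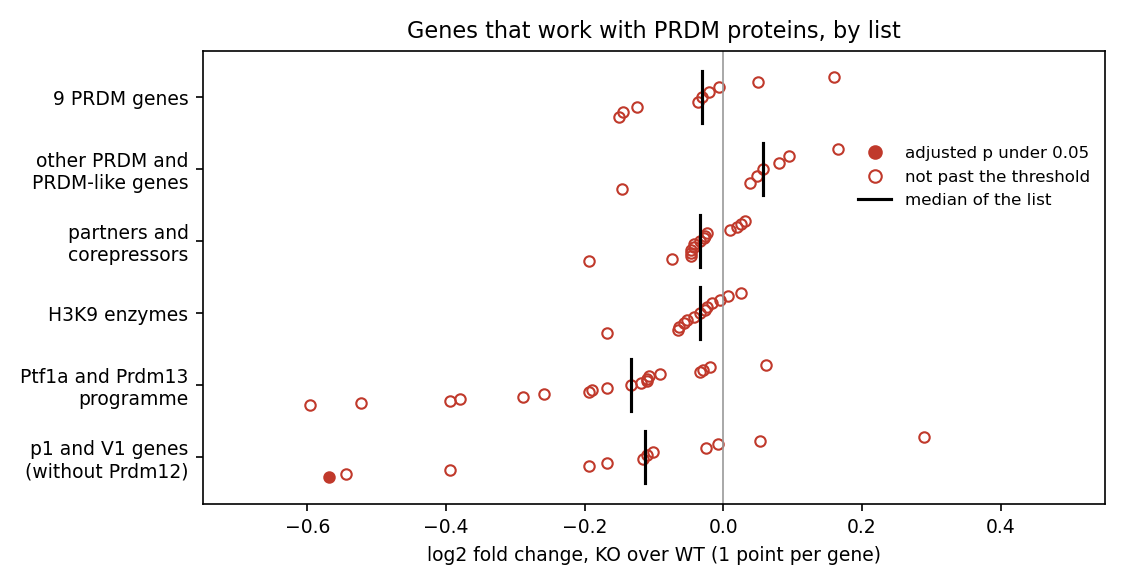
Log2 fold change of KO over WT, 1 point per tested gene, for the 9 PRDM genes and 5 lists of genes related to them, with the list median as a black line and filled points for an adjusted p under 0.05. The PRDM, partner and H3K9 lists lie between −0.19 and 0.16, whereas the lowest Ptf1a programme and V1 genes reach −0.60 and −0.57, and Foxd3 is the filled point.

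Reads from genes annotated across a paralogue could enter its count, and those genes had few counts. As strand use is not given, reads in shared exons may have been dropped. Low counts therefore do not show how much these genes were transcribed. Of the 9 such genes with a row in the tables, none averaged more than 0.127 CPM over all 8 libraries. Mecomos, annotated antisense to Mecom (chr3:30012379-30054808), averaged 0.127 ± 0.0557 CPM in KO and 0.0464 ± 0.0187 CPM in WT (SD, n = 4 each). B230104I21Rik, across Prdm16 (chr4:154336127-154349918), averaged 0.0778 ± 0.0316 CPM in KO and 0.00881 ± 0.0176 CPM in WT, at most 3 reads per library. Neither was tested.

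The profile of each paralogue over the 8 libraries was also set beside those of 14175 genes with a mean of at least 1 CPM. Likeness is the Pearson correlation of log2 CPM, and with 8 libraries of 2 genotypes that share tissue mix and depth it is a description only. For Mecom the closest were Morc4 (r = 0.96) and Fli1 (r = 0.96), an ETS factor of endothelium and blood. For Prdm13 they were Lrrc4 (r = 0.97), a synaptic adhesion gene, and Neurog2 (r = 0.96), a proneural factor. Prdm16 was closest to Bend7 (r = 0.97) and Mbd1 (r = 0.95), and Prdm8 to Gm2694 (r = 0.96) and Cox19 (r = 0.95). Prdm2 was closest to Nufip2 (r = 0.97) and Zfp955b (r = 0.93), and Prdm15 to Armc7 and 2410131K14Rik (r = 0.98 each). Prdm4 was closest to Trmt61a (r = 0.98) and the replication nuclease gene Fen1 (r = 0.97), and Prdm6 to the matrix gene Matn4 (r = 0.98) and Pttg1ip (r = 0.98). Prdm1 was closest to Ttf2 and the mitotic kinesin gene Kif4 (r = 0.99 each), and WT replicate 1 was the highest library of Prdm1. The number of genes above r = 0.9 was 253 for Prdm1 and 6 for Prdm16.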

How the data were processed

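RNA-seq read counts per Ensembl gene, 1 file for each of 8 libraries, were analysed as deposited. Per the submitters' processing notes the build was mm10 and the tools named were STAR 2.3.0e and featureCounts 1.4.6-p1, beside DESeq2 1.8.2, FastQC 0.10.1 and SAMtools 0.1.18, without roles or settings; strand is not given in the sources used. The 5 summary rows per file held 0 counts and were left out. Symbols, positions and lengths came from GENCODE M21 (GRCm38, the assembly of mm10), where 36602 of 38355 identifiers matched; the other 1753 held 0.263% of counts. Groups came from the sample titles.

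KO and WT were compared with edgeR 4.0.16 (R 4.3.3): filterByExpr, TMM (factors 0.991 to 1.01), robust quasi-likelihood F test, group alone as design, adjusted over 16068 genes. The SE is the size of the log2 fold change over the square root of F, and 95% intervals use the t distribution. Intervals treat each gene alone. CPM and RPKM were computed here from the deposited counts. At the smallest total 1 CPM is 23 counts. Neighbours in level, in the order set by the WT means, were compared within all 8 libraries by exact sign-flip tests. On simulated counts for KO against WT (15939 genes tested) it called 64.7% of 68 genes set at 1.5-fold, 80.3% of 66 at 2-fold and 100.0% of 64 at 4-fold.

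Alternatives used DESeq2 1.42.0, limma 3.58.1 (voom with quality weights), library totals, other filters, the replicate number as a block, a muscle and mesenchyme covariate, WT replicate 1 thinned, and fits without each library. Titles number the libraries 1 to 4 in each group; same-numbered libraries deviated from their group means with correlations of −0.35, 0.62, −0.51 and 0.37, so the numbers were not read as pairs. No 2 libraries of a group agreed within sampling noise (chi-square per degree of freedom at least 4.63). The PRDM genes and the gene lists were chosen with earlier results of these data known. Named genes are the 9 paralogues, Prdm12, genes overlapping them, up to 4 per list with the smallest p, and the 2 most alike per paralogue, and 1 gene the rule named is not reported here; Ehmt1, Ehmt2, Ptf1a, A730035I17Rik, Mecomos, B230104I21Rik, Prdm14, Kdm4d and 3 pseudogenes were named after their values were seen. Drgx was matched through its RefSeq synonym Prrxl1. Figures used matplotlib 3.10.9.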

Additional observations from a re-analysis of the deposited data

Results flagged for a closer look

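A library that stood apart from the other 3 of its group was sought for each PRDM gene, Prdm12 and the sum of the 9, in 22 groups of 4 libraries, where chance gives about 1 in 20. Prdm1 was at 6.13 CPM in WT replicate 1, with WT replicates 2 to 4 at 4.23 to 4.37 CPM, and the gap was 0.93 of the whole range. Prdm6 was at 11.6 CPM in KO replicate 2, against 8.53 to 8.89 CPM in the other KO libraries, with a gap of 0.883 of the range.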

How the results depend on the processing

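Under all 16 alternatives 0 of the 9 PRDM genes were called, and the smallest adjusted p was 0.240, for Mecom without WT replicate 2. The median of the 9 was −0.061 to −0.008 with 1 library left out and 0.060, the opposite sign, with the muscle and mesenchyme covariate. Of 144 log2 fold changes 20 had the other sign, all at 0.12 or less. With the muscle and mesenchyme covariate Prdm1 was at 0.12, Prdm6 at −0.095, Prdm8 at 0.060, Prdm13 at 0.081 and Prdm16 at 0.084. With limma-voom Prdm1 was at 0.0024, Prdm2 at 0.0069, Prdm6 at −0.014 and Prdm16 at 0.049. With library totals Prdm15 was at 0.0043, and with WT replicate 1 thinned Prdm15 was at 0.0035 and Prdm16 at 0.012. Leaving out 1 library gave −0.23 to 0.025 for Prdm1, −0.068 to 0.14 for Prdm6, −0.019 to 0.017 for Prdm15 and −0.091 to 0.023 for Prdm16. For Prdm13 the range was −0.21 to −0.099 and for Prdm8 −0.20 to −0.062, without a change of sign. The count of called genes was 101 with DESeq2, 125 with limma-voom, 16 with the replicate block, 1 with the covariate and 15 to 133 without 1 library, the most without WT replicate 1. With the replicate block, which the numbers do not justify as pairs, no PRDM gene was called. In the list of p1 and V1 genes, Prdm12 included, 1 was called with the block, 1 with the covariate and 1 to 3 without 1 library. In the Ptf1a programme 1 was called with DESeq2, 1 with limma-voom and 0 to 2 without 1 library. The cause of these differences was not tested. By coding length 5 of 8 neighbouring pairs kept their order, and 6 to 8 without 1 WT library. Prdm1 had the fewest reads of the 9, and its interval reaches a fold of 0.704; the parts of depth and of variation between libraries in that width were not told apart.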
